A study of Rattus norvegicus with 12 samples.

Results

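The effect of 17β-estradiol (E2), the main estrogen of the ovary, was measured in the tibia of young female rats that were eating soy protein isolate (SPI). The comparison set the 3 arrays of the SPI+E2 group against the 3 arrays of the SPI group, 6 of the 12 arrays of the study, over all 31042 probe sets that are not controls. Both groups were Sprague-Dawley females fed the AIN-93G diet with SPI in place of casein from postnatal day 21 and sampled at day 34. The labels set them apart by E2, which was given through an osmotic pump under the skin. The methods describe no pump without E2 for the SPI or CAS group, so E2 and the pump cannot be told apart. The E2 effect below means the difference between groups with and without both. The CAS group, on casein without E2, and the E2 group, on casein with E2, gave the E2 effect on a diet without soy. Each array held equal amounts of RNA pooled from 2 to 3 rats, taken from the right tibia after the marrow had been aspirated,, on an Affymetrix rat expression array. p-values here therefore measure the spread between pools only.

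The deposited value of a probe set is a log2 value centred on the median of that probe set over the 12 arrays, so it carries no absolute level, and all values below are differences on that scale. In whole bone, fewer cells of a type and less RNA per cell cannot be told apart. Array medians lay between -0.0042 and 0.0072. The authors had normalised each chip, so these medians cannot show whether an array was shifted before that. The first SPI array (SPI 1) stood apart from the other 11: the SD of its values over all probe sets was 0.211, against 0.129 to 0.164 elsewhere. Without it 2147 genes passed the test in place of 2434, and 1862 genes were shared by both counts.

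Estradiol acts through nuclear receptors that bind DNA and through faster signals at the membrane, and in bone it restrains resorption and steers growth plate closure. Soy isoflavones are plant compounds that bind the same receptors, more weakly than E2 does. Bone also holds sensory nerve fibres, marked by calcitonin gene-related peptide and substance P, and sympathetic fibres, marked by the enzymes of noradrenaline synthesis and by neuropeptide Y, both wrapped by Schwann cells. A few sympathetic fibres of the periosteum switch to acetylcholine and vasoactive intestinal peptide.

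Opposite changes of nerve-related genes led the response to E2 on the SPI diet. Of 17 genes of autonomic transmitter and neuropeptide synthesis 10 rose, led by Vip, 8.46-fold higher, and Th, 4.51-fold higher. Of general neuronal genes 22 of 25 fell, of sensory neuron genes 14 of 15 and of Schwann cell genes 9 of 13, led by Gpm6a, 3-fold lower. Of the skeletal muscle genes 19 of 27 rose, of fat cell genes 10 of 19 and of cartilage genes 7 of 18, and 13 of 20 genes of cholesterol and fatty acid synthesis fell. Of osteoblast genes 11 of 14 did not pass the test, and neither did 11783 of all 14217 genes.

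Over 14217 genes, each taken as the mean of its probe sets, 1297 were higher with SPI+E2 than with SPI at an adjusted p under 0.05 in limma, 9.12% of those tested, and 1137 were lower, 8.00%. Those are the backgrounds for the counts of list members in this comparison, not for those with E2 on casein or for the difference between diets. The median change of all genes was 0.01, the quartiles were -0.07 and 0.10, and the median SE of a change was 0.06. Among the larger changes falls outnumbered rises. At least 1.5-fold, 53 genes were higher and 196 lower, and at least 2-fold, 7 were higher and 21 lower, all of them past the test. Over single probe sets 1727 were higher and 1810 lower, together 11.4% of the 31042. The 10216 probe sets without a single gene symbol held 435 of the rises and 464 of the falls, which are counted here and not named.

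The promoters of the 5 genes of autonomic transmitter and neuropeptide synthesis with the largest rises are printed here to show where they hold, or lack, a sequence feature that the choice of these genes did not use, the cyclic AMP response element (CRE). Each runs from 250 bases before the transcription start to 50 after it, 5′ to 3′ on the strand of the gene, from RefSeq on the GRCr8 build. Capitals mark the full element TGACGTCA in Th and Slc18a2 and its half-site TGACG, or CGTCA on the other strand, in Vip and Dbh, and Npy has no capitals since neither was found in it. Vip, vasoactive intestinal peptide, lies at chr1:44470230-44470529 on the plus strand, Th, tyrosine hydroxylase, at chr1:207508169-207508468 on the minus strand, Npy, neuropeptide Y, at chr4:80211861-80212160 on the plus strand, Dbh, dopamine β-hydroxylase, at chr3:30886078-30886377 on the plus strand, and Slc18a2, the vesicular monoamine transporter, at chr1:268399771-268400070 on the plus strand.
Vip: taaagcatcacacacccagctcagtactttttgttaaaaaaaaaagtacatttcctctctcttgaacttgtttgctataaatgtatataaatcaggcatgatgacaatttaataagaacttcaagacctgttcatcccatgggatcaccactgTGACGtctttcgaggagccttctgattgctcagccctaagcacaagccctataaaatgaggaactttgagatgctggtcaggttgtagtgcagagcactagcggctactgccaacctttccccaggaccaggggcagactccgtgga
Th: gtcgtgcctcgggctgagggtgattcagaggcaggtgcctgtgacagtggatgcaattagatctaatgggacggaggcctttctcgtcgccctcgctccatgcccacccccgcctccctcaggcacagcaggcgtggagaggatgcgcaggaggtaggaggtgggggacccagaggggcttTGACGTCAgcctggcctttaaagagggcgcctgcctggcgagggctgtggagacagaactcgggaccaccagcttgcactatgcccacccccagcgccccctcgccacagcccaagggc
Npy: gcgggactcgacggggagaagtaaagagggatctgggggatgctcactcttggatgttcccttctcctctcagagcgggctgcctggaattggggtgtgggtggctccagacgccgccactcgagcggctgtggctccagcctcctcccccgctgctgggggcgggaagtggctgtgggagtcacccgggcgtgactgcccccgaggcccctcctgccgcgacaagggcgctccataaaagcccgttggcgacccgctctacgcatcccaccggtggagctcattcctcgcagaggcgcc
Dbh: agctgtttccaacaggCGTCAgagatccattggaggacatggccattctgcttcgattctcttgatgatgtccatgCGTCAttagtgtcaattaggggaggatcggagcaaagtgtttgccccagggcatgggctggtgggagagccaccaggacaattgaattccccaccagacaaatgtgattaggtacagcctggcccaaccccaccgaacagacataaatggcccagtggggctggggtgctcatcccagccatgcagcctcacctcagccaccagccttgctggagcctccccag
Slc18a2: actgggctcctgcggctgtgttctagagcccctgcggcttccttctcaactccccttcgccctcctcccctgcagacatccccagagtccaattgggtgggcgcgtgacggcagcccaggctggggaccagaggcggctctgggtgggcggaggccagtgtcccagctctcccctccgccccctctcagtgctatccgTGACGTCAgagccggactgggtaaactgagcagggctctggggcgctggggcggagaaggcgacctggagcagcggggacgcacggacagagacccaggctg

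The full CRE lay 69 bases before the start of Th and 52 bases before that of Slc18a2. Slc18a2 also held a separate half-site 145 bases before its start, left in lower case above. The half-site lay 97 bases before the start of Vip, and 2 half-sites lay 234 and 174 bases before that of Dbh. Npy, the third largest rise of these genes, held neither. Of the 33469 rat promoters of this length, 1.83% held the full element and 21.2% a half-site, on either strand, with half-sites inside a full element counted as well. Among promoters of measured genes the shares were 2.70% and 28.1%. Promoters of the genes higher with SPI+E2 held the full element in 26 of 1169, 2.22%, and those of the genes lower in 33 of 1049, 3.15%, so both shares were near that of measured genes. Of the 17 promoters matched for the list of catecholamine synthesis and neuropeptide genes, 3 held the full element, those of Th, Slc18a2 and Sst, and Sst fell. An estrogen response element written as GGTCA, 3 free bases and TGACC was in 9 of all promoters and in 2 of the 13242 of measured genes. It was in no promoter of a gene that rose or fell, but an element this rare cannot set those genes apart from the rest. A match of letters describes the window and says nothing of binding.

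Vip encodes a peptide transmitter of parasympathetic and some sympathetic neurons. It stood at 0.35, 0.20 and 0.01 on the SPI arrays and at 3.37, 2.96 and 3.47 on the SPI+E2 arrays. The SPI+E2 arrays were thus far above every other array of the study, since CAS lay between -0.30 and -0.01 and E2 between -0.39 and -0.32. The change was 3.08 with an SE of 0.12 and an adjusted p of 5.07e-08, the largest among all genes tested. Th makes the first, rate-limiting step from tyrosine to the catecholamines. It stood at 0.34, 0.01 and -0.16 with SPI and at 2.37, 1.76 and 2.56 with SPI+E2, a change of 2.17 with an SE of 0.20 and an adjusted p of 1.55e-05.

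Npy, a co-transmitter of sympathetic neurons, stood at 0.27, 0.09 and 0.06 with SPI and at 1.54, 1.63 and 1.54 with SPI+E2, 2.69-fold higher. Dbh, which turns dopamine into noradrenaline, stood at 0.32, 0.29 and 0.00 against 1.43, 1.63 and 1.29, 2.37-fold higher. Slc18a2, which loads amines into vesicles, stood at -0.02, 0.00 and -0.01 against 0.83, 1.01 and 0.86, 1.88-fold higher. In each of these genes the lowest SPI+E2 array lay above the highest array of the other groups, and adjusted p-values were 1.93e-07, 8.34e-06 and 3.61e-06. Ddc, the enzyme that follows Th in the pathway, rose by 0.62 (SE 0.06, adjusted p = 2.10e-05). Its probe sets were at 1.12 and 0.11, the second not past the test (adjusted p = 0.636). Slc10a4, a transporter of aminergic and cholinergic vesicles, rose by 0.48 (adjusted p = 0.00145). The transcription factors Phox2a and Gata3 of the sympathetic lineage rose by 0.49 and 0.28, with adjusted p = 0.0104 and 0.000512.

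Of the 17 measured genes of autonomic transmitter synthesis and neuropeptides, which hold the catecholamine and peptide genes above, 10 were higher with SPI+E2, 2 were lower and 5 did not pass the test, with a median of 0.32 against 0.01 over all genes. The 2 that fell were peptides that sensory neurons also make: Adcyap1, which encodes PACAP, at -0.74, and Sst, somatostatin, at -0.62. Slc6a2, the noradrenaline reuptake transporter, was at 0.05 (adjusted p = 0.775), and Chrna3, a ganglionic acetylcholine receptor subunit, at 0.22 (adjusted p = 0.0593). Hand2, a further lineage factor, was at 0.32 (adjusted p = 0.0181) and missed the threshold without SPI 2, SPI 3 or SPI+E2 2, at 0.0502, 0.0577 and 0.0681. With E2 on the casein diet Vip, Th, Dbh, Ddc and Slc18a2 did not pass the test, at -0.20, -0.19, 0.03, -0.07 and -0.07, and Npy fell by 0.38. Mean values of the list over its genes lay between 0.63 and 0.71 on the SPI+E2 arrays and between -0.17 and 0.13 on the other 9.

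**Figure D1:**
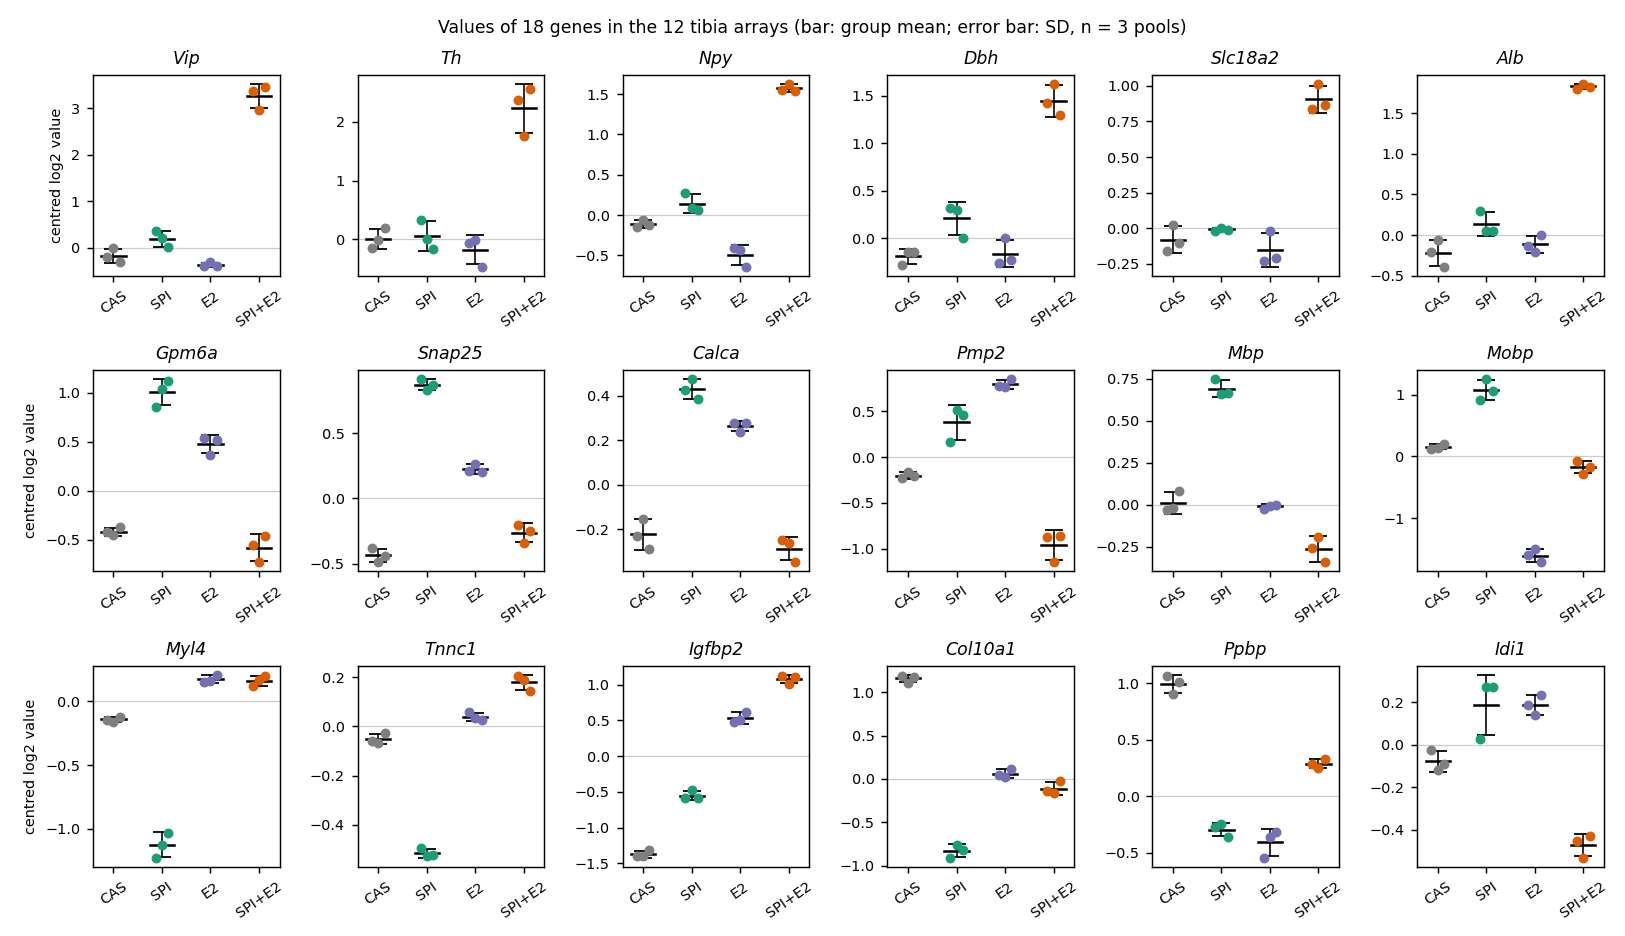
Values of 18 genes on the 12 arrays, as centred log2 values on the vertical axis and by group on the horizontal axis, where each point is 1 pool, the bar is the group mean and the error bar the SD over 3 pools. Vip stands between 2.96 and 3.47 on the SPI+E2 arrays and below 0.40 on the rest, while Gpm6a is above 0.80 on the SPI arrays and below -0.40 on the SPI+E2 arrays.

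The other neural genes moved the opposite way. Of 25 measured genes of the neuronal cytoskeleton and synaptic vesicles, 22 were lower with SPI+E2 than with SPI, none was higher and 3 did not pass, with a median of -0.69. Gpm6a, a membrane glycoprotein of growing neurites, stood at 0.86, 1.04 and 1.12 with SPI and at -0.56, -0.73 and -0.46 with SPI+E2, a change of -1.59. Snap25, a protein of vesicle fusion that the study also followed, stood at 0.91, 0.83 and 0.87 against -0.20, -0.34 and -0.25, a change of -1.13. The groups were over 1 unit apart in both genes, which had been named among genes without overlap. Over all 14217 genes, the arrays did not overlap in 2382 that were higher and 1948 that were lower. The neurofilament genes Nefl, Nefm and Nefh, which build the axon skeleton, fell by 0.90, 0.94 and 0.93. Vsnl1, a neuronal calcium sensor, fell by 1.25, and Scg2, a granin of secretory vesicles, by 0.77. Syt1, a calcium sensor of vesicle release, was at 0.01 (adjusted p = 0.944).

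Of 15 measured sensory neuron genes, 14 were lower, none was higher and 1 did not pass, with a median of -0.61. Calcb and Tac1, which encode β-calcitonin gene-related peptide and the precursor of substance P, fell by 0.96 and 0.88 (adjusted p = 1.11e-06 and 9.15e-07). Calca, which encodes calcitonin and α-calcitonin gene-related peptide, stood at 0.43, 0.47 and 0.38 with SPI and at -0.25, -0.26 and -0.35 with SPI+E2. Its 3 probe sets differed in size, at -0.93, -0.21 and -1.01, and the second of them did not pass the test, with an adjusted p of 0.176. Scn10a, a sodium channel of pain fibres, fell by 0.61, and Trpv1, the heat and capsaicin channel, by 0.38. The probe sets of Trpv1 were at -0.42, -0.82 and 0.105, the last not past the test (adjusted p = 0.351). Prph, the intermediate filament of small sensory and autonomic fibres, fell by 0.62.

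Of 13 measured genes of Schwann cells and peripheral myelin, 9 were lower, none was higher and 4 did not pass, with a median of -0.52. Pmp22 and Prx, structural proteins of peripheral myelin, fell by 0.97 and 0.90 (adjusted p = 2.66e-08 and 3.27e-07). Pmp2, a fatty acid carrier of the same myelin, stood at 0.16, 0.52 and 0.46 with SPI and at -0.87, -1.15 and -0.86 with SPI+E2. Its SPI+E2 values were below those of all other arrays, CAS included, which lay between -0.23 and -0.16. Mal and Mbp, also of myelin, fell by 1.04 and 0.95, and S100b, a calcium-binding protein of glia, by 0.94. Sox10 and Ngfr, which mark the Schwann lineage more widely, fell by 0.45 and 0.79.

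Genes listed as markers of central glia, cells that bone does not hold, also changed. Some of them, such as Mag and Gfap, are not confined to central glia. Of the 16, 11 were lower, none was higher and 5 did not pass, with a median of -0.75, and 1 was higher without CAS 3 or SPI 1. Mobp, of central myelin, stood at 0.91, 1.25 and 1.06 with SPI and at -0.08, -0.28 and -0.17 with SPI+E2, a change of -1.25. Olig1 and Mag, an oligodendrocyte factor and a myelin glycoprotein, fell by 1.35 and 1.17. Gfap, the filament of astrocytes and non-myelinating glia, stood at 0.94, 0.81 and 0.85 against -0.01, -0.10 and -0.14. Olig2, a second oligodendrocyte factor, was at -0.06 (adjusted p = 0.687), and Aqp4, the water channel of astrocytes, at -0.21 (adjusted p = 0.0688). The list means lay between 0.50 and 0.58 with SPI and between -0.19 and -0.06 with SPI+E2, with no overlap. The part of any carried tissue in the neural falls was not tested.

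SPI and SPI+E2 were each set against CAS, in comparisons that share the CAS arrays with each other and the SPI or SPI+E2 arrays with the comparison above. This showed where both groups lay. For the neuronal list the median was 0.98 for SPI minus CAS and 0.20 for SPI+E2 minus CAS. For sensory neurons these medians were 0.81 and 0.12, for Schwann cells 0.68 and 0.01, and for central glia 0.57 and -0.15. For catecholamine and peptide genes they were 0.16 and 0.51. The neural markers were thus high with SPI alone and nearer to CAS with SPI+E2. Relative to CAS, Vip, Th and Npy were at 3.44, 2.22 and 1.68 with SPI+E2 and at 0.36, 0.05 and 0.25 with SPI.

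**Figure D2:**
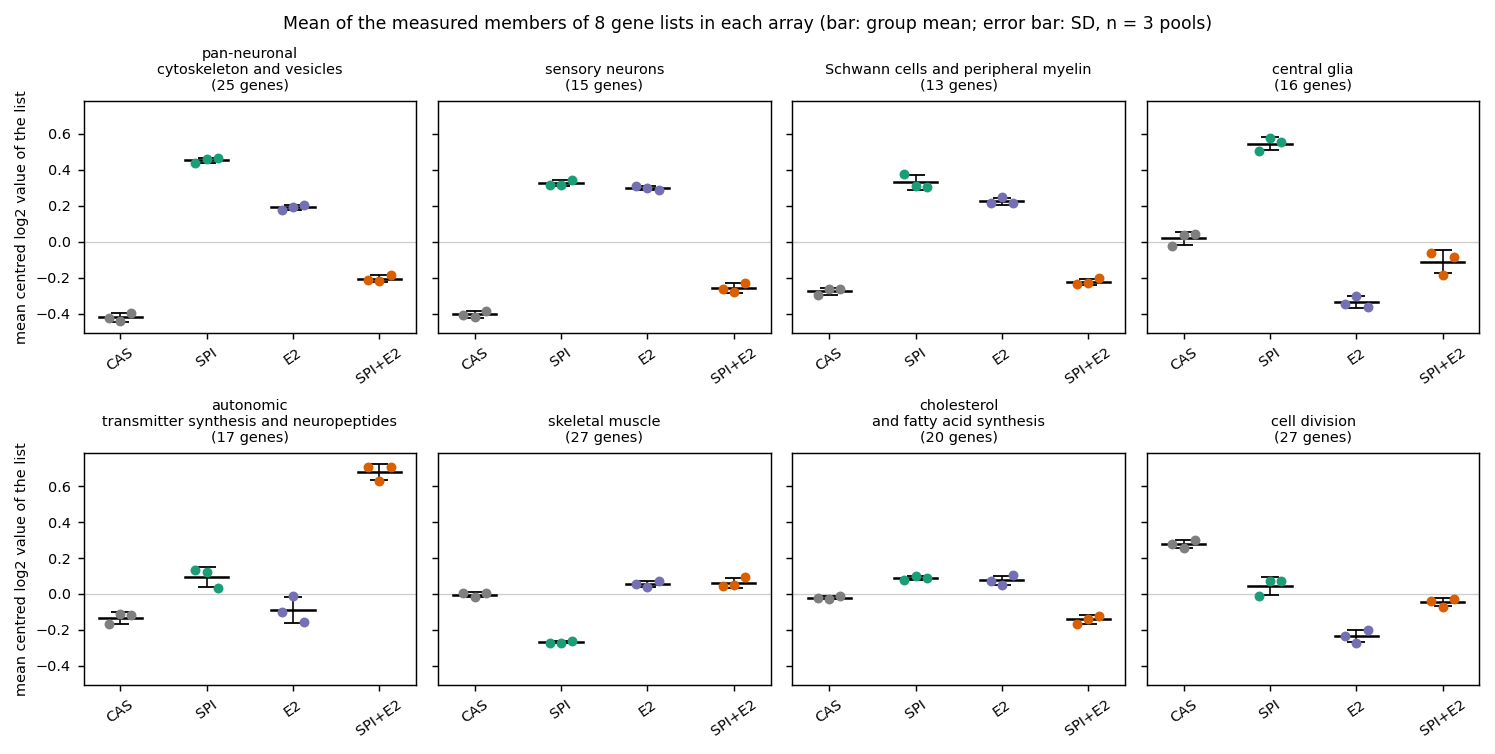
Mean centred log2 value over the members of 8 gene lists (vertical axis) on each of the 12 arrays (horizontal axis, by group), where each point is 1 array, the bar is the group mean and the error bar the SD over 3 pools. The neuronal list lies between 0.44 and 0.46 on the SPI arrays and between -0.22 and -0.19 on the SPI+E2 arrays, and the list of autonomic transmitter synthesis and neuropeptides is highest on the SPI+E2 arrays.

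Of 27 measured skeletal muscle genes, 19 were higher, none was lower and 8 did not pass, with a median of 0.27. Myl4, an atrial and embryonic myosin light chain, stood at -1.23, -1.13 and -1.03 with SPI and at 0.12, 0.17 and 0.20 with SPI+E2, 2.45-fold higher (adjusted p = 4.49e-08). Tnnc1, Tnni1 and Tnnt1, the troponins of slow muscle, rose by 0.70, 0.68 and 0.60. Myh7 and Myl3, the slow myosin heavy chain and a slow light chain, rose by 0.57 and 0.59. Ankrd2, a stretch-responsive protein of slow muscle, stood at -0.25, -0.41 and -0.38 against 0.52, 0.66 and 0.61, 1.93-fold higher. Myh3, the embryonic myosin heavy chain, rose by 0.61. Of the genes of fast fibres, Tnnt3, Tnni2 and Tnnc2, the fast troponins, rose by 0.36, 0.14 and 0.12, and Myh1, Myh2, Atp2a1 and Actn3 by 0.27, 0.18, 0.16 and 0.15. Myh4, Myl1, Myl11, Ckm and Pvalb, also of fast fibres, were at 0.00, 0.07, 0.07, 0.09 and -0.09, none past the test. Acta1, the actin of skeletal fibres in general, was at 0.05 (adjusted p = 0.438). List means lay between -0.27 and -0.26 with SPI and between 0.04 and 0.09 with SPI+E2, and CAS lay between -0.02 and 0.01, so the SPI arrays were the low ones. Whether the amount of attached muscle differed was not tested.

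Of 19 measured fat cell genes, 10 were higher, none was lower and 9 did not pass, with a median of 0.17. Plin4, a coat protein of lipid droplets, stood at -0.46, -0.28 and -0.34 with SPI and at 0.31, 0.25 and 0.30 with SPI+E2, 1.56-fold higher. Plin5, another droplet protein of oxidative tissue, stood at -0.47, -0.64 and -0.59 against 0.23, 0.18 and 0.49. Cidea, of brown fat droplets, rose by 0.51 (adjusted p = 4.35e-06), and Ucp1, the uncoupling protein of brown fat, by 0.22. Fabp4, Pnpla2, Pck1 and Lpl, of fatty acid transport, lipolysis, glycerol synthesis and lipid uptake, rose by 0.34, 0.37, 0.30 and 0.27. Adipoq, the fat cell hormone adiponectin, was at 0.12 (adjusted p = 0.135).

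The enzymes of cholesterol synthesis fell together. Of 20 measured genes of cholesterol and fatty acid synthesis, 13 were lower, 3 were higher and 4 did not pass, with a median of -0.25. Idi1, isopentenyl diphosphate isomerase, stood at 0.03, 0.27 and 0.27 with SPI and at -0.45, -0.53 and -0.43 with SPI+E2, 1.58-fold lower (adjusted p = 2.80e-05). Msmo1, Sqle, Cyp51 and Sc5d, of the later sterol steps, fell by 0.61, 0.59, 0.58 and 0.56. Fdps and Fdft1, of the earlier isoprenoid steps, fell by 0.30 and 0.28. The 3 that rose belong to fatty acid synthesis and its control: Fasn, fatty acid synthase, at 0.22, Scd, stearoyl-CoA desaturase, at 0.24, and Srebf1, the factor that drives them, at 0.35. The probe sets of Srebf1 were at 0.299 and 0.397, the first not past the test (adjusted p = 0.171). Srebf1 also lost its call in the fit of 2 groups (adjusted p = 0.0535). Elovl6, a fatty acid elongase, went the other way, with both probe sets past the test at -0.40 and -0.42. Srebf2, the sterol-sensing factor, was at -0.02 (adjusted p = 0.886). List means did not overlap, from 0.08 to 0.10 with SPI and from -0.17 to -0.12 with SPI+E2.

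**Figure D3:**
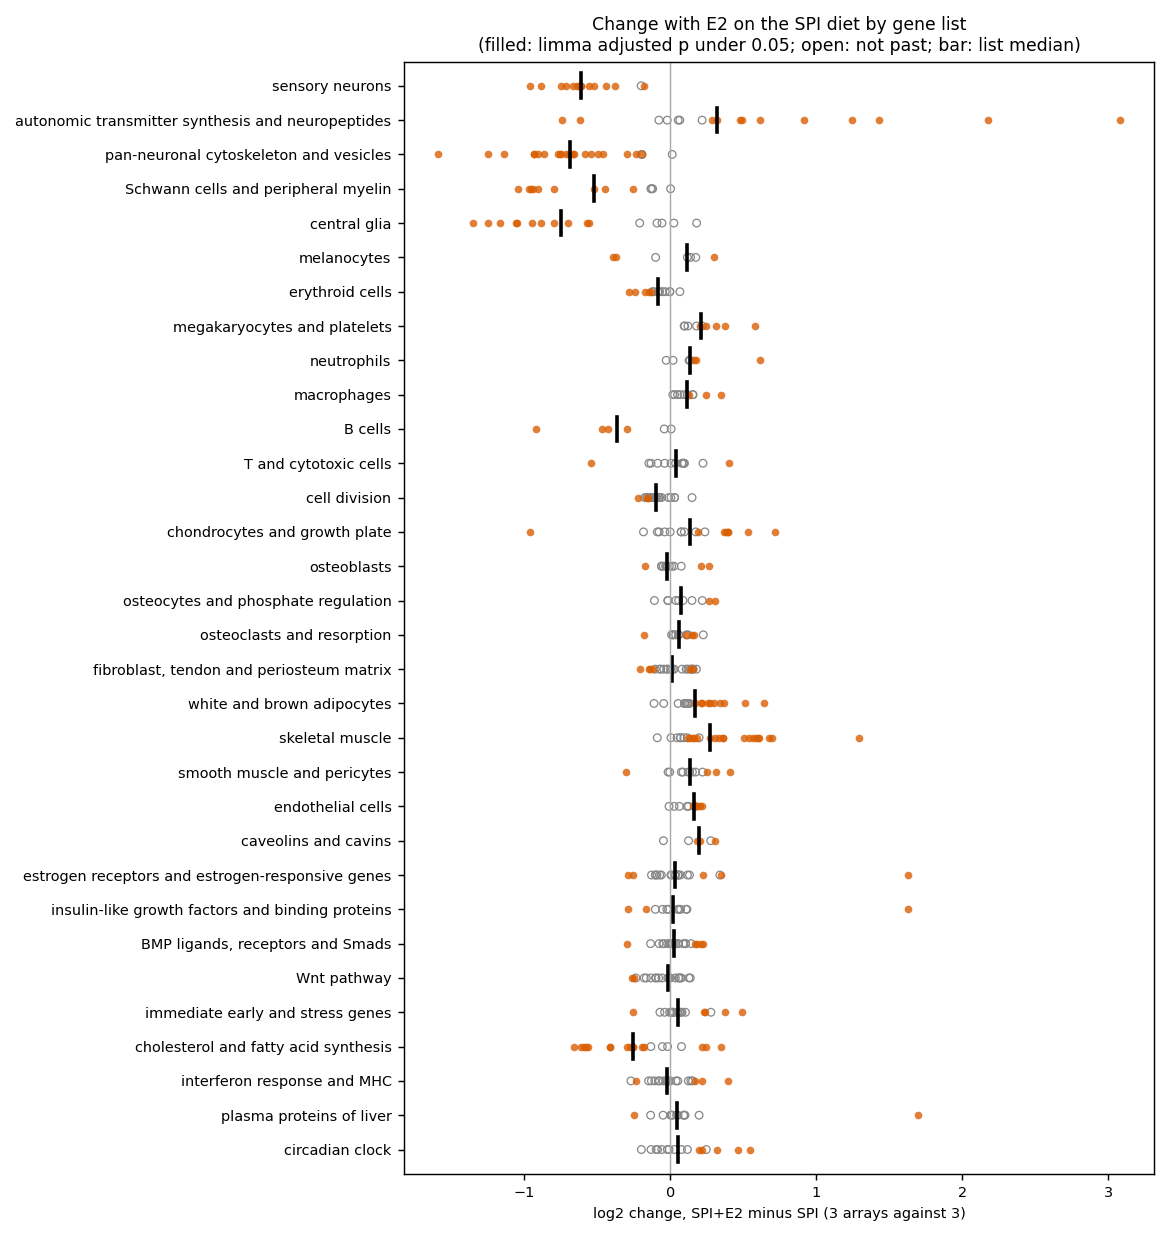
Change of each measured member of the gene lists from SPI to SPI+E2 (horizontal axis, log2), 1 row of points for each list, filled for members past the test and open for the others, with the list median as a bar. The medians of the neuronal, sensory, Schwann cell and central glia lists lie left of 0, those of muscle and fat cells right of it, and the catecholamine and peptide list reaches 3.08.

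Of 18 measured cartilage and growth plate genes, 7 were higher, 1 was lower and 10 did not pass, with a median of 0.14. Col10a1, the collagen of hypertrophic chondrocytes, stood at -0.91, -0.76 and -0.82 with SPI and at -0.14, -0.16 and -0.03 with SPI+E2, 1.65-fold higher. Both groups lay below CAS, at 1.11 to 1.19. Col9a1, Col2a1, Hapln1 and Comp, of the cartilage matrix, rose by 0.53, 0.40, 0.40 and 0.37. Cnmd, chondromodulin, an inhibitor of vessel growth, went the other way, from 0.21, 0.22 and 0.22 to -0.68, -0.87 and -0.68, a change of -0.96. Ihh and Col11a1 were at -0.18 and -0.09, neither past the test.

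Most genes of the bone cell lists did not pass the test, and neither did 11783 of all 14217 genes. Of 14 osteoblast genes 2 were higher and 1 was lower, and Col1a1, Bglap and Alpl, the main collagen, osteocalcin and alkaline phosphatase, were at -0.06, -0.03 and 0.01 (adjusted p = 0.262, 0.688 and 0.898). Of 10 osteocyte genes 2 were higher, Dmp1 by 0.30 and Mepe by 0.27, both matrix proteins of mineralising cells, and none was lower, or 1 without SPI+E2 2. Of 13 osteoclast genes 3 were higher and 1 was lower. At the lowest 2 were higher when 1 array was left out, and none was higher in the fit of 2 groups. Acp5, the tartrate-resistant phosphatase, rose by 0.15, and Car2, carbonic anhydrase, which red cells also hold, fell by 0.18. Sost, the Wnt inhibitor sclerostin, was at -0.02 (adjusted p = 0.942), with 2 probe sets at -0.19 and 0.15, and its groups overlapped. Bmp2, a bone-forming ligand, was at 0.21 (adjusted p = 0.0455). It missed the threshold, and 1 osteoblast gene was higher in place of 2, when any array but CAS 2 or SPI 3 was left out, with adjusted p between 0.0513 and 0.137. Of 23 BMP genes 4 were higher and 1 was lower, among them Id1, a BMP target, at 0.22, and Sostdc1, an inhibitor, at -0.30. Without SPI 2 the count of 4 was 2. Of 21 Wnt genes none was higher and 2 were lower, a share near the 8.00% of all genes. These were Lef1 and Tcf7, factors of the pathway, at -0.26 and -0.25. Both lost the call in the fit of 2 groups (adjusted p = 0.057 and 0.0654), while 4 genes were lower without SPI+E2 3.

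Among 22 estrogen receptors and estrogen-responsive genes, 3 were higher, 2 were lower and 17 did not pass, shares of the list that were near the backgrounds of 9.12% and 8.00%. The count of 2 was 1 without SPI 3, SPI+E2 1 or SPI+E2 3. Igfbp2, which binds insulin-like growth factors, had the largest change of the list. It stood at -0.59, -0.48 and -0.59 with SPI and at 1.12, 1.01 and 1.10 with SPI+E2, 3.09-fold higher (adjusted p = 2.59e-08). It also rose with E2 on casein, from between -1.40 and -1.31 to between 0.48 and 0.62. Greb1, an estrogen receptor target in other tissues, was at 0.35, but its 2 probe sets were at -0.04 and 0.73. The receptors Esr1 and Esr2 and the progesterone receptor Pgr were at -0.09, 0.04 and -0.06, with adjusted p = 0.389, 0.808 and 0.654. Of 12 insulin-like growth factor genes, Igfbp2 was the 1 that rose and 2 were lower, among them Igfbp4, also a binding protein, at -0.29 (1 was lower without SPI 2 or SPI+E2 3), while Igf1 was at -0.10 (adjusted p = 0.16).

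Of the other genes that the study followed, Atf3, a stress transcription factor, rose from -0.22, -0.29 and -0.12 to 0.12, 0.16 and 0.21, 1.30-fold higher (adjusted p = 0.00237). Cav1, the coat protein of caveolae, was at 0.21 (adjusted p = 0.0228) and missed the threshold without SPI 1 or SPI+E2 2, at 0.0689 and 0.086. It also missed it in the fit of 2 groups, with array weights and with quantile normalisation, at 0.0674, 0.0525 and 0.0783. None of its probe sets, at 0.354, 0.115 and 0.149, passed alone. Runx2 was not measured by a probe set with a single symbol. Of 19 immediate early and stress genes, 4 were higher and 1 was lower. Hspa1a, a heat shock protein, rose by 0.49 and Jun by 0.24, while Fos was at -0.07, not past the test.

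Alb, serum albumin, was the third largest rise, at 0.30, 0.05 and 0.05 with SPI and at 1.80, 1.86 and 1.83 with SPI+E2, 3.24-fold higher (adjusted p = 2.78e-07). Its 2 probe sets were at 2.40 and 0.997. Of the other 12 measured plasma proteins of liver, none was higher: Ttr, transthyretin, was at 0.20, Ambp at 0.10 and Apoa1 at 0.04, none past the test. Rbp4, a retinol carrier, was at -0.25 and lost its call without SPI 2 or SPI+E2 2 (adjusted p = 0.0512 and 0.0548). Ddit4l, an inhibitor of mTOR signalling, Krt19, an epithelial keratin, and Defa7, a defensin of granules, rose by 0.96, 0.95 and 0.87. LOC100910319 and LOC100910189, with no settled name, rose by 0.97 and 0.88. The remaining large falls were Rgs7bp at -1.26, Calb1 at -1.12, Cfap20dc at -1.12, Htr2c at -1.09, Lamp5 at -1.07, Apod at -1.07, Nap1l5 at -1.07 and Olfm3 at -1.07. Several are best known from neurons, such as Calb1, a calcium buffer, and Htr2c, a serotonin receptor, whose 2 probe sets were at -0.39 and -1.78. Apod, a lipid carrier of glia and fibroblasts, stood at 0.41, 0.41 and 0.45 against -0.60, -0.66 and -0.67.

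Blood cell genes differed by lineage. Of 6 measured B cell genes 4 were lower and none was higher. Ms4a1, the surface protein CD20, stood at 0.53, 0.78 and 0.85 with SPI and at -0.08, -0.12 and -0.39 with SPI+E2, 1.89-fold lower (adjusted p = 6.05e-05). Blnk and Cd79b, of B cell receptor signalling, fell by 0.47 and 0.42, and Cd74 was at 0.01. Of 10 megakaryocyte and platelet genes 5 were higher and none was lower, led by Ppbp and Pf4, chemokines of platelet granules, at 0.58 and 0.32 (adjusted p = 6.46e-05 and 0.000301). Without SPI+E2 3 the count was 3. Of 15 erythroid genes 5 were lower and none was higher, led by Alas2, the enzyme that starts haem synthesis, at -0.28, and the count was 3 without SPI 2, SPI 3, SPI+E2 2 or SPI+E2 3. Of 27 cell division genes 3 were lower and none was higher, with a median of -0.10, against a background for falls of 8.00%. Leaving out 1 array gave 2 to 6 lower genes, with 6 without SPI 1, and the fit of 2 groups gave 1. Endothelial genes were higher in 6 of 12, but in 3 without SPI 2 and in 2 without SPI+E2 3. Lcn2, lipocalin of neutrophil granules, rose by 0.61, and Cd68, of macrophage lysosomes, by 0.35. Their lists of 7 and 11 genes held 3 rises each, which became 1 without SPI+E2 3 for neutrophils and 1 without SPI 2 or SPI+E2 2 for macrophages. Of 13 T and cytotoxic cell genes 1 was higher and 1 lower.

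The lists of the remaining cell types were small or moved with single arrays. Of 6 caveolin and cavin genes 3 were higher. Of 23 genes of fibroblast, tendon and periosteum matrix 2 were higher and 4 lower, and over the fits that left out 1 array these counts ran from 0 to 2 and from 1 to 4. The lowest values came without SPI+E2 1 for the rises and without SPI+E2 2 for the falls. Of 13 smooth muscle and pericyte genes 3 were higher and 1 was lower, and 1 was higher without SPI 2, SPI 3 or SPI+E2 3. The 1 lower gene, Cnn1, a contractile protein, was at -0.30 and lost its call without SPI 1, SPI+E2 1 or SPI+E2 3 (adjusted p = 0.0785, 0.0943 and 0.0621). Of 7 melanocyte genes 1 was higher and 2 were lower, with 1 lower in the fits without most of the single arrays.

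The E2 effect on the SPI diet was set against that on the casein diet, E2 minus CAS, which shares no array with it. The difference between the 2 effects was positive in 1142 genes, 8.03% of 14217, and negative in 1098, 7.72%, at an adjusted p under 0.05. Of the 2434 genes past the test on SPI, 936 also passed it on casein, where 2020 passed in all. Of these 936, 497 fell on SPI and rose on casein, 186 rose on both, 179 fell on both and 74 rose on SPI and fell on casein. Across the 14217 genes, which are not independent replicates, the 2 effects had a Pearson r of -0.20. Opposite directions were thus the most frequent pattern among genes that passed on both diets.

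The neuronal, sensory and Schwann cell lists turned direction with the diet. The background for counts on casein is the 2020 of 14217 genes that passed there in either direction. On casein E2 raised 23 of the 25 neuronal genes, 14 of the 15 sensory genes and 9 of the 13 Schwann cell genes, with medians of 0.65, 0.75 and 0.39, and lowered none of them. The difference between the diets was negative past the test for 24, 15 and 10 of them. Gpm6a was at 0.89 on casein against -1.59 on SPI, a difference of -2.48 with an SE of 0.11, and Scg2 was at 1.23 against -0.77. For central glia, E2 on casein lowered 6 of 16 and raised 2. Mobp, Gfap and Mog were at -1.76, -1.13 and -1.05 on casein and at -1.25, -0.95 and -1.06 on SPI.

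**Figure D4:**
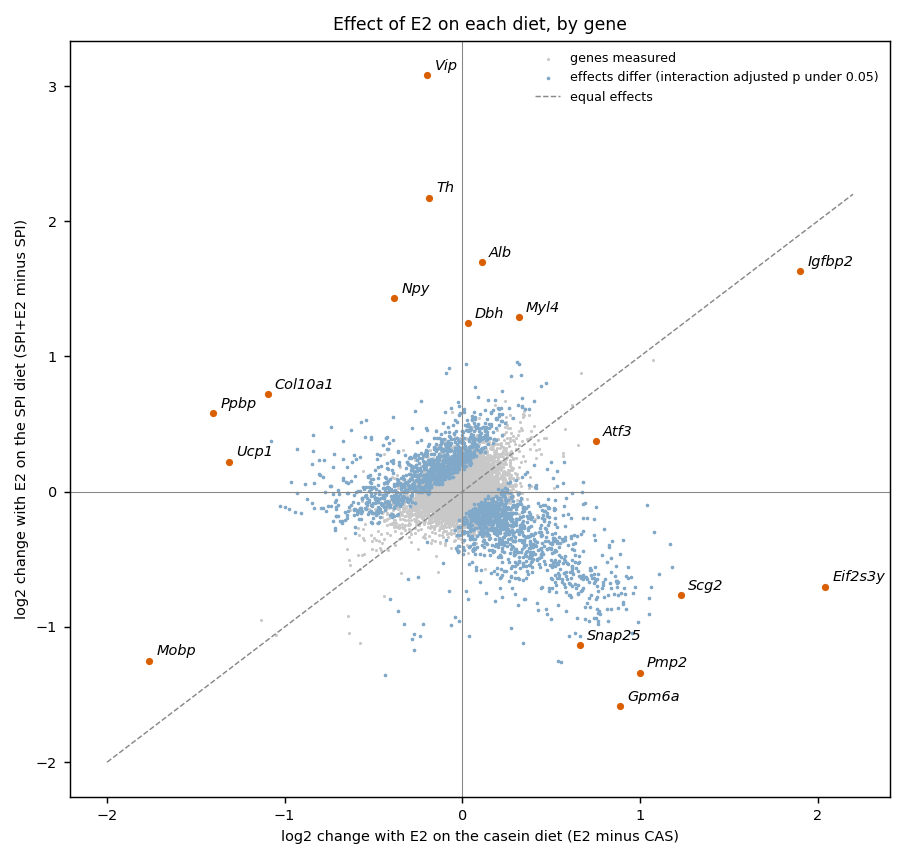
E2 effect of each gene on the casein diet (E2 minus CAS, horizontal axis, log2) against that on the SPI diet (SPI+E2 minus SPI, vertical axis, log2), where each point is 1 of the 14217 genes, blue where the effects differ past the test, the dashed line marks equal effects, and some named genes are labelled. Vip and Th stand alone at the top near 0 on the horizontal axis, Igfbp2 is high on both axes, and Gpm6a is low on the vertical and high on the horizontal axis.

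For catecholamine and peptide genes the difference was positive in 9 of 17, at 3.28 for Vip and 2.36 for Th (adjusted p = 1.38e-07 and 0.000113). Cell division genes fell with E2 on casein in all 27 measured, with a median of -0.51, against 3 on SPI, and the difference passed in 26. Erythroid genes fell on casein in all 15, with a median of -0.72, and the difference passed in 13. Ppbp was at -1.40 on casein and 0.58 on SPI, and 8 of 10 megakaryocyte genes had a positive difference. Muscle genes were higher with E2 in 4 of 27 on casein and in 19 on SPI, and the difference passed in 12. For fat cell genes it was positive in 12 of 19, with Ucp1 at -1.31 on casein against 0.22 on SPI, and for cartilage in 9 of 18, with Col10a1 at -1.10 against 0.72. For cholesterol and fatty acid synthesis the difference was negative in 11 of 20, and 8 genes were higher with E2 on casein. B cell genes fell on both diets, 4 of 6 on each, and no member's difference between diets passed the test.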

How the data were processed

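Total RNA of the right tibia was hybridised to Affymetrix rat expression arrays, 3 per group. The authors summarised probe intensities by robust multiarray analysis (RMA) as log2 values and then normalised each chip and each gene in GeneSpring. GCOS and RMA appear in the submitters' processing notes with no version given. The deposited log2 values ran from -2.2 to 3.47 and were used as they stand. The table does not state its log base, so folds rest on the log2 of the methods. Only differences between arrays can be read, with a precision set by the number of arrays.

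Of 31099 probe sets, 57 controls were left out. GEO's platform annotation gave 1 symbol to 20826 probe sets, several to 436 and none to 9780, and 20758 gene identifiers matched RefSeq on GRCr8. Probe sets with 1 symbol were averaged per gene, and 4525 genes had more than 1. Groups came from the sample titles. limma 3.58.1 in R 4.3.3 fitted the 4 groups over all 12 arrays with moderated variances, a contrast for SPI+E2 minus SPI, one for E2 minus CAS and one for their difference, with Benjamini-Hochberg adjustment over all features and a threshold of 0.05. The code was tested on simulated data. Alternatives were other normalisations, variances, array weights, a fit of 2 groups, the pool number as a block, a single probe set per gene, natural logs and leaving out each array.

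Genes were named by rule: the 15 largest rises and 15 largest falls past the test without overlap, the 4 largest changes of each of 32 gene lists, the genes the study followed, and the 8 largest differences between diets each way. The other genes named were chosen after their values were seen. The members and lists were chosen with earlier results of these data known. List counts and medians are descriptions. Promoters came from a RefSeq table and were searched on both strands.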

Additional observations from a re-analysis of the deposited data

Results flagged for a closer look

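The E2 effect differed between the diets, by the test of that difference in limma, in 2240 genes at an adjusted p under 0.05. The 8 largest negative differences (E2 effect on SPI minus E2 effect on casein, log2) were those of Eif2s3y at -2.75, Gpm6a at -2.48, Pmp2 at -2.34, Mal at -1.999, Scg2 at -1.995, Pmp22 at -1.96, Prx at -1.95 and Synpr at -1.83. Apart from Eif2s3y, these are genes of neurons and myelin. The 8 largest positive differences were those of Vip at 3.28, Th at 2.36, Ppbp at 1.98, Col10a1 at 1.82, Npy at 1.81, Alb at 1.59, Ucp1 at 1.53 and Tubb1 at 1.45.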

How the results depend on the processing

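With the SPI and SPI+E2 arrays fitted alone, 1662 probe sets (694 higher, 968 lower) and 1339 genes passed the test in place of 3537 and 2434, and 1326 of these genes were shared with the fit of 4 groups. That fit rests on 6 arrays. The count of probe sets at least 1.5-fold apart, 532, was 1268 with the values read as natural logarithms and 249 over gene means. Every other alternative kept these counts and that of the difference between diets, 2240, within 1.5 times. Leaving out each array gave 2598 to 3224 probe sets, 1900 to 2308 genes and 1767 to 2200 genes for the difference. With quantile normalisation 1947 genes passed. The change of Greb1 turned sign with a single probe set, at -0.0355 (adjusted p = 0.849) against 0.35. Of 181 named genes past the test, 128 kept it under every alternative, and 45 of the other 53 lost it in the fit of 2 groups. The labels do not say whether arrays with the same pool number belong together, and 3 arrays per group cannot settle it. Deviations of arrays with the same number correlated at -0.07 to 0.24, those with other numbers at -0.23 to 0.20. The highest value was that of SPI 3 with SPI+E2 3, and 4 of 12 arrays correlated best with their own number. With the pool number as a replicate block 3383 probe sets, 2408 genes and, for the difference, 2157 genes passed. Probe set signal over background cannot be read from centred values, so probe sets near background were not left out.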

Other observations

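Eif2s3y, a translation factor gene of the Y chromosome, varied between groups of pools labelled female. It stood between -2.20 and -1.82 on the CAS arrays, between 0.26 and 0.86 with SPI, between 0.01 and 0.19 with E2 and between -0.37 and -0.01 with SPI+E2. Its change from SPI to SPI+E2 was -0.70 (adjusted p = 0.00844). The Y-linked genes Sry, Tspy1 and Uty were at 0.01, 0.06 and 0.17, with adjusted p = 0.986, 0.64 and 0.0628, and Xist, expressed from the inactive X chromosome, was at 0.05 (adjusted p = 0.5). Sry, Tspy1, Uty and Xist were chosen after their values were seen.

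Of 16 measured genes of the circadian clock, 5 were higher with SPI+E2 than with SPI and none was lower. Npas2 and Bmal1, partners in the activating complex, rose by 0.54 and 0.32, and Nfil3, a repressor of the output loop, by 0.46 (adjusted p = 0.000833, 0.0083 and 3.61e-05). Per1, Per2 and Per3, which close the loop, were at 0.12, -0.02 and -0.10, none past the test. Without SPI+E2 3 the count of 5 was 3, and without SPI 2 1 gene was lower. By the study's methods the rats were killed shortly after the lights came on.

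Of 20 interferon response and MHC genes, 3 were higher and 1 was lower, among them RT1-Bb, a class II chain, at 0.40 and Rsad2, an antiviral enzyme, at -0.23. The count of 3 was 1 without SPI 3, SPI+E2 2 or SPI+E2 3, and 3 were lower without SPI+E2 2.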
